A study of Acipenser ruthenus with 35 samples.

Results

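Sections A and B are the extreme animal and the neighbouring animal slab of big oocytes of the sterlet, Acipenser ruthenus. They were chosen by their labels, as the section A and section B libraries of big oocytes 1, 2, 3 and 11, which are 8 of the 35 libraries of the series. In TOMO-Seq, an untreated oocyte is frozen with its animal pole at a known end and cut into thin slices. These were pooled into 5 sections from A to E, and the RNA of every section was sequenced after ribosomal RNA had been depleted. Big oocytes are advanced vitellogenic cells of 1920 to 2100 µm in diameter, so that a section was 384 to 420 µm thick. Oocytes 1, 2 and 3 have all 5 sections and oocyte 11 has A and B only. All big oocytes came from 1 female. The small (early vitellogenic) oocytes 5, 6 and 8, from another female, provide 6 further libraries of A and B. They measured 1320 to 1500 µm, so that a section was 264 to 300 µm thick. Stage, female, section thickness and the smaller RNA input of those libraries cannot be told apart. The study selected its samples by RT-qPCR on continuous gradients of marker transcripts, so a gradient of those markers is a condition of entry and not a result.

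In vertebrate oocytes with yolk, the animal-vegetal axis is laid down during oogenesis, and maternal RNAs kept at 1 pole are inherited by different cells of the embryo. The nucleus of a big sterlet oocyte lies in the animal hemisphere. Vegetal localization is the better known branch, since it places germ plasm RNAs, such as that of the RNA-binding protein gene dnd1, which germ cells need for their survival. Animal localization is less studied, and the comparison of A with B asks how sharply animal transcripts are restricted to the pole. Counts give the share of a transcript in the RNA of a section, so less of a transcript and more of all others cannot be told apart.

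Of 49027 transcripts in the table, 32291 passed a minimum scaled count of 20 per oocyte and were tested. None of the identifiers matched a gene in the RefSeq annotation, so transcripts carry their assembly identifiers. The exceptions exd2, slc44a3 and dnd1 are named by the primer list of the study. Values called CPM below are counts per 1000000 after median-of-ratios scaling within a stage. The 8 libraries held 1816470 to 10428971 counts and detected 35141 to 44068 transcripts. The lowest total belonged to section A of oocyte 11, where the 10 most abundant transcripts took 10.2% of the counts, against 3.04% to 4.54% in the other 7. The A minus B of most named transcripts and the counts of calls are therefore also given without oocyte 11.

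The animal markers illustrate the steepness of the step. The study measured them by RT-qPCR with these primers, shown because they identify the only animal transcripts here that have a gene name, written 5′ to 3′ with no part in capitals.
exd2 forward: gtgttggtggaaagacaggaaga
exd2 reverse: gcaccggcaaccccaaa
slc44a3 forward: aggctgctcttcggctatg
slc44a3 reverse: acacctccttccgatcagtc

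For exd2, an exonuclease domain gene, section A held 374, 172, 248 and 234 CPM in oocytes 1, 2, 3 and 11. Section B held 17.8, 13.1, 7.51 and 10.4 CPM, and section C of oocytes 1, 2 and 3 held 1.31, 2.22 and 0.797 CPM. Every A library lay above every B library, and every B library above every C library, so that the B level was low but not that of the rest of the oocyte. The fitted log2 difference of A minus B was 4.35 ± 0.18 (SE; 4.32 ± 0.22 without oocyte 11), and that of B minus C was 3.32 ± 0.41. For slc44a3, a choline transporter-like gene, A held 84.3, 50.2, 60.2 and 62.7 CPM and B held 13.2, 8.76, 4.80 and 7.79 CPM. Its A minus B was 2.87 ± 0.15 (2.84 ± 0.17 without oocyte 11) and its B minus C 2.12 ± 0.26. The vegetal marker dnd1 ran the other way from the first section on, with 24.1, 31.3, 21.7 and 28.4 CPM in A and 41.0, 89.9, 50.1 and 58.1 CPM in B. Its A minus B was -1.17 ± 0.14, with an adjusted p of 5.26e-05 from edgeR's quasi-likelihood test, and -1.19 ± 0.17 without oocyte 11. Its groups did not overlap.

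**Figure D1:**
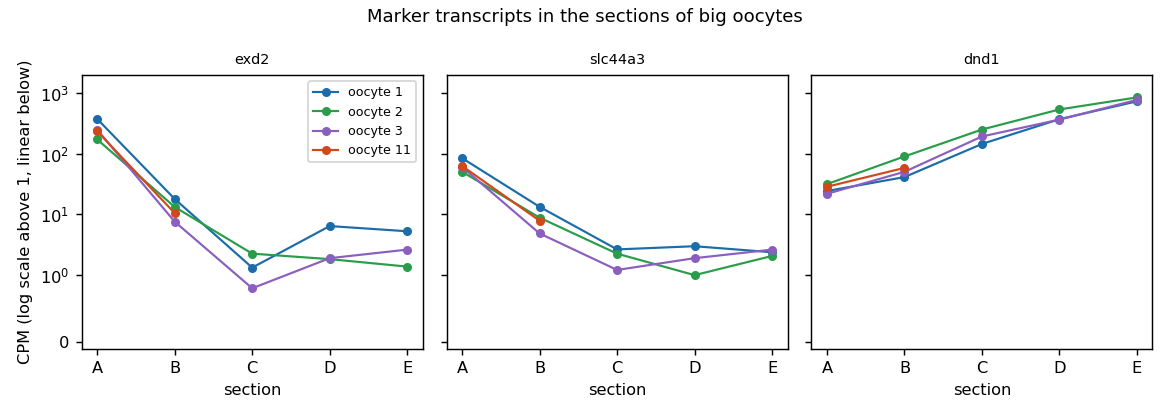
Level of exd2, slc44a3 and dnd1 (CPM, logarithmic above 1 and linear below) in sections A to E of big oocytes, with a line for each oocyte. The fall of exd2 and slc44a3 continues from B to C, and dnd1 rises at every section, including the step from A (21.7 to 31.3 CPM) to B (41.0 to 89.9 CPM).

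Transcripts higher in A outnumbered those higher in B, except after scaling by library totals. In all, 3605 transcripts (11.2%) were higher in A and 1982 (6.14%) were higher in B at an adjusted p under 0.1, which together are 17.3% of those tested. The split depended on scaling: with library totals in place of median-of-ratios factors, which moved the median A minus B of all transcripts from -0.02 to -0.13, 2943 were higher in A and 5309 in B. The share of calls that lay in A was then 35.7% instead of 64.5%. Of the 5309, the 1982 found with median-of-ratios scaling made up 37.3%.

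Called differences were larger toward A than toward B. The median A minus B was 0.80 among transcripts higher in A and -0.29 among those higher in B. Both are medians of called transcripts, and what can be called depends on abundance, as given below, and on scaling. Differences of at least 2-fold were called for 1332 transcripts higher in A and 188 higher in B. At 4-fold the numbers were 298 and 42, and at 8-fold 73 and 14. The log2 ratio of A to B had the same sign in all 4 oocytes for 90.7% of the transcripts higher in A and 88.2% of those higher in B, beside 30.5% of all tested. The calls were made on these same libraries, which favours a shared sign, so the higher shares are no independent check. All 4 A libraries lay above all 4 B libraries for 2986 transcripts (9.25% of those tested), and all 4 B libraries above all 4 A libraries for 1790 (5.54%).

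Abundance set how small a difference could be called. Among transcripts with a scaled total of 20 to 200 per oocyte, 8.20% were called and the median SE was 0.361. Between 200 and 2000, 21.6% were called with a median SE of 0.131. Above 2000, 44.8% were called with a median SE of 0.0719, and here B (25.8%) led A (19.0%).

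Transcripts were classed by the steps on both sides of B. Confined to A means that A was higher than B at the threshold and by at least 4-fold, and that A was the highest of the 5 fitted levels. Extending into B means that A was higher than B, and B higher than C, without reaching the first class. Level across A and B means that both exceeded C and that A minus B passed no threshold and lay within 0.5 of 0. Peak in B means that B exceeded both neighbours, A and C, whatever the level in D and E. The classes were formed with the same values, so their profiles over A, B and C are descriptions.

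**Figure D2:**
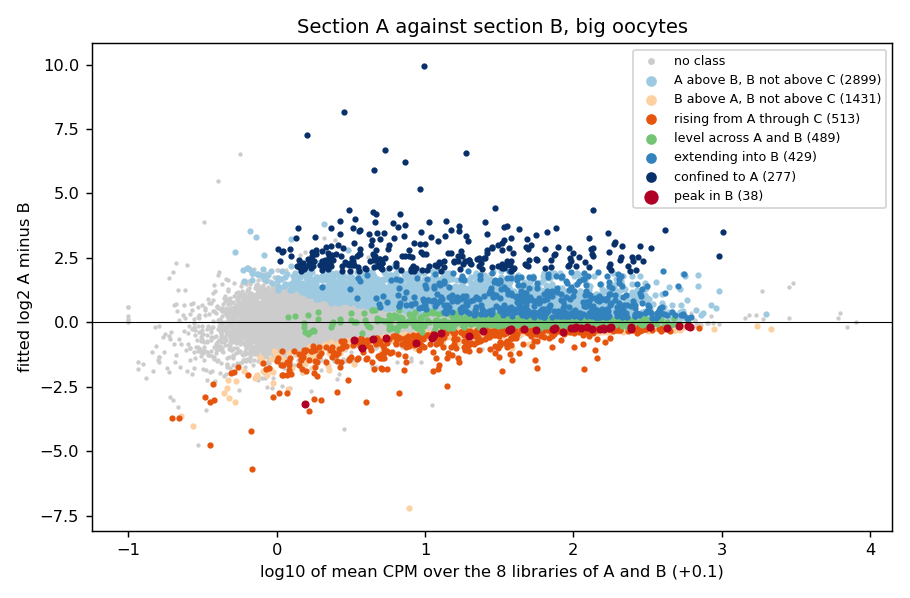
Fitted log2 difference of A minus B (vertical) of the 32291 transcripts tested against the log10 of their mean CPM over the 8 libraries plus 0.1 (horizontal), coloured by class with the number of members. The 277 transcripts confined to A begin at a difference of 2 by definition. The 38 with a peak in B have a median of -0.25 and are mostly abundant, but a scarce member lies at -3.15.

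Confined to A were 277 transcripts (0.858% of those tested). Their median A minus B was 2.55, with quartiles at 2.245 and 2.997, and their median B minus C was 0.42. The median transcript of the class had 62.3% ± 7.47 of its scaled total in A, 9.84% ± 1.79 in B, 7.85% ± 1.63 in C, 8.29% ± 1.64 in D and 9.03% ± 2.08 in E (SD, n = 3 oocytes). Beyond A this median profile was nearly flat. E was higher than C for 25.3% of the members, beside 21.2% of all tested, and lower for 1.44%, beside 13% of all tested. The class is not empty in B: for 55 of the 277, both animal markers included, B was higher than C (3.67% of all tested), and for none was B lower than C (5.89% of all tested). Together the members took 2.05% ± 0.573 of the counts of A libraries and 0.345% ± 0.0313 of those of B libraries (SD, n = 4). These transcripts were scarce, with a median scaled total of 129 per oocyte against 200.01 for all tested. Only 49.1% had an identifier of the de novo part of the assembly, against 64.5% of all tested, and the others came from its genome-guided part. The 277 came from 267 assembly components.

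The limit of 4-fold cut through a continuum. The members just inside and just outside it, among those with a scaled total of at least 200, had an A minus B of 2.00 on both sides (2.001 and 1.998), and 186 called transcripts highest in A lay within 0.25 of the limit. A further 21 transcripts were at least 4-fold higher in A than in B without being highest in A.

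No count in B of any big oocyte was found for 3 transcripts of the class, which were named after their values were seen. TRINITY_GG_86527_c0_g1_i1_1 held 37.4, 13.9, 18.2 and 8.87 CPM in A of oocytes 1, 2, 3 and 11 and was at 0 in every B, C, D and E library of the big oocytes, so the restriction holds with and without oocyte 11. Its 632 counts in A against the floor of 3 counts over the 4 B libraries made it at least 191-fold higher in A. For this transcript the small oocytes showed the same restriction, with 22.6, 16.6 and 23.6 CPM in A and 0, 1.17 and 0 CPM in B. TRINITY_GG_106145_c0_g1_i1_1 (8.98, 5.82, 4.28 and 2.96 CPM in A) was at least 48.6-fold higher in A and at most 0.261 CPM elsewhere in the big oocytes. It was also highest in A of each small oocyte with an A library. There it held 0, 0.584 and 1.34 CPM in B and up to 2.49 CPM in E. TRINITY_GG_284_c2_g1_i1_2 was at least 23.9-fold higher in A than in B but reappeared in C of oocyte 1 (2.31 CPM) and in D of oocytes 2 and 3. The small oocytes did not show its restriction, with 1.46, 0 and 0 CPM in A and 0, 2.92 and 0.576 CPM in B.

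Among called transcripts of at least 200 scaled counts and the same sign in all 4 oocytes, TRINITY_GG_69000_c1_g1_i2_1 had the largest excess in A. Section A held 54.3, 19.97, 39.4 and 36.1 CPM in oocytes 1, 2, 3 and 11, and B held 0.594, 0.515, 0.209 and 0 CPM. Levels stayed at or under 1.87 CPM in C and D and were 1.04, 11.9 and 3.09 CPM in E of oocytes 1, 2 and 3, so oocyte 2 had a second, lower maximum at the opposite pole. The A minus B was 6.55 ± 0.79 (adjusted p 0.000284) and 6.30 ± 0.87 without oocyte 11. The next was TRINITY_GG_116938_c0_g1_i1_1, with 68.8, 39.7, 44.3 and 75.1 CPM in A and 3.56, 2.06, 1.88 and 2.60 CPM in B. Its A minus B was 4.44 ± 0.20 (4.34 ± 0.23 without oocyte 11), and its B minus C of 3.13 ± 0.57 shows a further fall behind B, as in exd2. A different shape was that of TRINITY_DN53798_c0_g1_i1_1, with 216, 111, 115 and 122 CPM in A on a floor of 10.2 to 12.5 CPM in B that went on at 8.03 to 12.8 CPM through C, D and E. Its A minus B was 3.65 ± 0.14 (3.69 ± 0.17 without oocyte 11). Its B minus C was 0.40 ± 0.21 and did not pass the threshold (adjusted p 0.353).

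Extending into B were 429 transcripts (1.33%). Their median A minus B was 0.69, ranging from 0.17 to 2.00, and their median B minus C was 0.53, so that the fall was spread over both steps. For 162 of the 429 the step from B to C was larger than that from A to B, and 292 were less than 2-fold higher in A. The median member had 35.2% ± 2.33 of its total in A, 21.4% ± 0.288 in B, 14.9% ± 0.664 in C, 14.0% ± 0.927 in D and 13.3% ± 0.909 in E (SD, n = 3). From C to E the members differed: E was lower than C for 133 (31.0%, beside 13% of all tested) and higher for 59 (13.8%, beside 21.2% of all tested), and the others were called in neither direction. The highest fitted level lay in E for 7 members. These transcripts were abundant (median scaled total 1071 per oocyte) and made up 5.35% ± 0.506 of the counts in A and 3.62% ± 0.201 in B (SD, n = 4).

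Among members of this class under the same limits of count and sign, TRINITY_GG_82251_c3_g2_i1_1 and TRINITY_DN54680_c0_g2_i1_1 had the steepest falls behind B. The former held 72.4, 55.5, 67.2 and 63.8 CPM in A, 24.9, 20.3, 11.5 and 19.1 CPM in B, and 2.41, 2.67 and 1.196 CPM in C. Its A minus B was 1.78 ± 0.14 (1.79 ± 0.16 without oocyte 11) and its B minus C 3.14 ± 0.25, so the larger step lay behind B. The latter held 289, 169, 228 and 246 CPM in A, 84.5, 54.7, 47.4 and 57.6 CPM in B, and 8.84, 8.00 and 4.78 CPM in C. Its A minus B was 1.94 ± 0.11 (1.89 ± 0.13 without oocyte 11) and its B minus C 3.07 ± 0.17. In both, oocyte 3 had the lowest B library, and the libraries of A, B and C did not overlap.

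**Figure D3:**
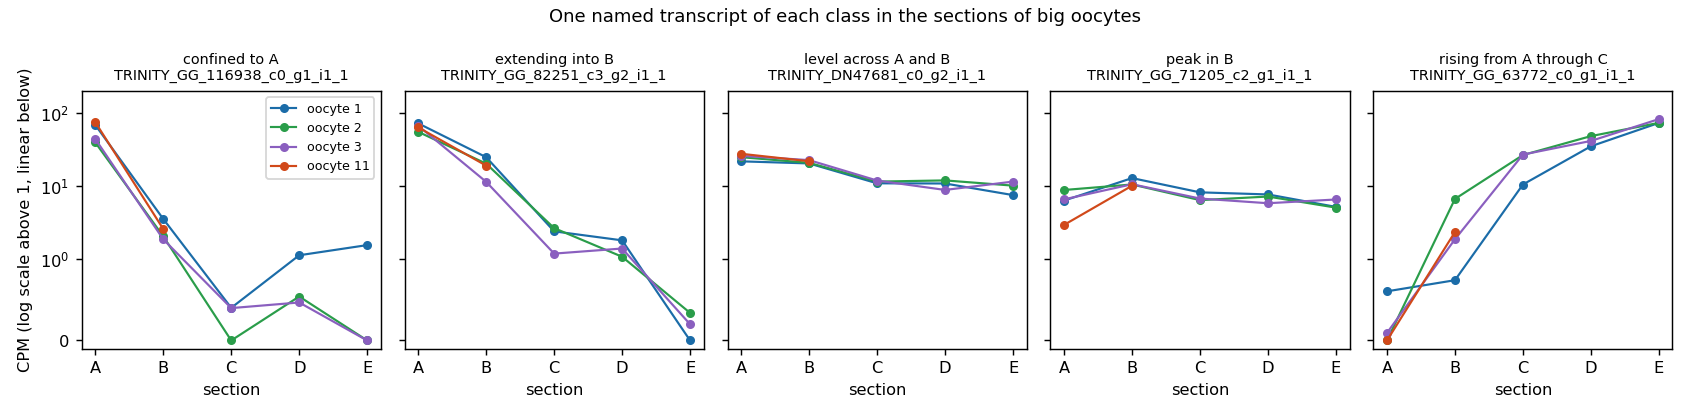
Level (CPM, logarithmic above 1 and linear below) of 1 named transcript for each of 5 classes in sections A to E, with a line for each big oocyte. TRINITY_GG_116938_c0_g1_i1_1 drops most from A to B, TRINITY_GG_82251_c3_g2_i1_1 most from B to C, and TRINITY_GG_71205_c2_g1_i1_1 is highest in B among the sections measured in each of the 4 oocytes.

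The largest group, 2899 transcripts (8.98%), was higher in A than in B without B exceeding C and without meeting the definition of confined to A. Its median A minus B was 0.74 and its median B minus C was 0.06, a value that the definition keeps low. A missed call of B over C does not show that the excess ended at the first boundary. Of all 3605 transcripts higher in A, 3030 had their highest fitted level in A and 554 in E, the opposite pole. TRINITY_GG_76290_c0_g1_i1_1 is of the latter kind, with 13.004 to 22.5 CPM in A, 5.01 to 11.6 CPM in B and 33.9 to 46.5 CPM in E. In oocyte 11 its A and B were close, at 13.004 and 11.6 CPM.

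Level across A and B were 489 transcripts (1.51%), whose median A minus B was 0.01 and median B minus C 0.44. A missed threshold does not show equality, but for 395 of the 489 the interval of the estimate ± 1.96 SE stayed within 0.5 of 0, and for 473 within 1. The median member had 24.9% ± 0.614 of its total in A and 24.6% ± 0.604 in B, then 17.95% ± 0.616 in C (SD, n = 3). TRINITY_DN47681_c0_g2_i1_1 held 21.9, 24.96, 26.05 and 27.8 CPM in A, 20.5, 20.9, 22.7 and 21.96 CPM in B, and 10.95, 11.6 and 11.96 CPM in C. Its A minus B was 0.21 ± 0.12 (adjusted p 0.286; 0.19 ± 0.13 without oocyte 11) and its B minus C 0.87 ± 0.15. TRINITY_DN61634_c0_g1_i1_1 had an A minus B of 0.28 ± 0.16 (0.27 ± 0.18 without oocyte 11) and a B minus C of 0.77 ± 0.20.

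With median-of-ratios scaling, a peak in B was rare and shallow. It is relative to the typical transcript, whose median share was 19.5% in A, 19.4% in B and 19.2% in C. The paper states that this scaling took most animal transcripts out of its own results. The class held 38 transcripts (0.118%), of which 36 had their highest fitted level in B and 2 in E, with a median B minus A of 0.25 on the log2 scale and a median B minus C of 0.32. The median member had 20.2% ± 0.725 of its total in A, 24.2% ± 0.475 in B and 19.0% ± 0.813 in C (SD, n = 3). All 4 B libraries lay above all 4 A libraries for 16 of the 38 (42.1%), beside 5.54% of all tested, a measure that the class definition shares. The members were mostly abundant transcripts (median scaled total 2145 per oocyte), for which the smallest differences can be called. The size of the class moved with the settings more than that of any other class: it held 303 transcripts, all 38 among them, after scaling by library totals, 20 with DESeq2 and 9 without the oocyte as a block.

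TRINITY_GG_71205_c2_g1_i1_1 held 6.36, 8.88, 6.60 and 2.96 CPM in A and 12.9, 10.6, 10.6 and 10.2 CPM in B. Its A minus B was -0.80 ± 0.19 (adjusted p 0.00299; -0.70 ± 0.19 without oocyte 11) and its B minus C 0.68 ± 0.21 (adjusted p 0.0399). The B libraries lay above the A libraries and above the C libraries (6.45 to 8.24 CPM) without overlap. TRINITY_GG_78355_c0_g1_i1_1 held 8.78, 8.60, 11.4 and 8.28 CPM in A and 14.99, 12.2, 12.7 and 13.5 CPM in B. Its A minus B was -0.50 ± 0.15 (-0.47 ± 0.17 without oocyte 11), and the call was lost without oocyte 1 (adjusted p 0.284) and after thinning to a common depth (adjusted p 0.673). A single member exceeded 2-fold on both sides. This scarce transcript, TRINITY_GG_82640_c2_g1_i1_1, was named after its values were seen and held 2.82, 3.48 and 3.96 CPM in B and 0.202 to 0.832 CPM in A of oocytes 1, 2 and 3, and it was at 0 in both sections of oocyte 11.

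**Figure D4:**
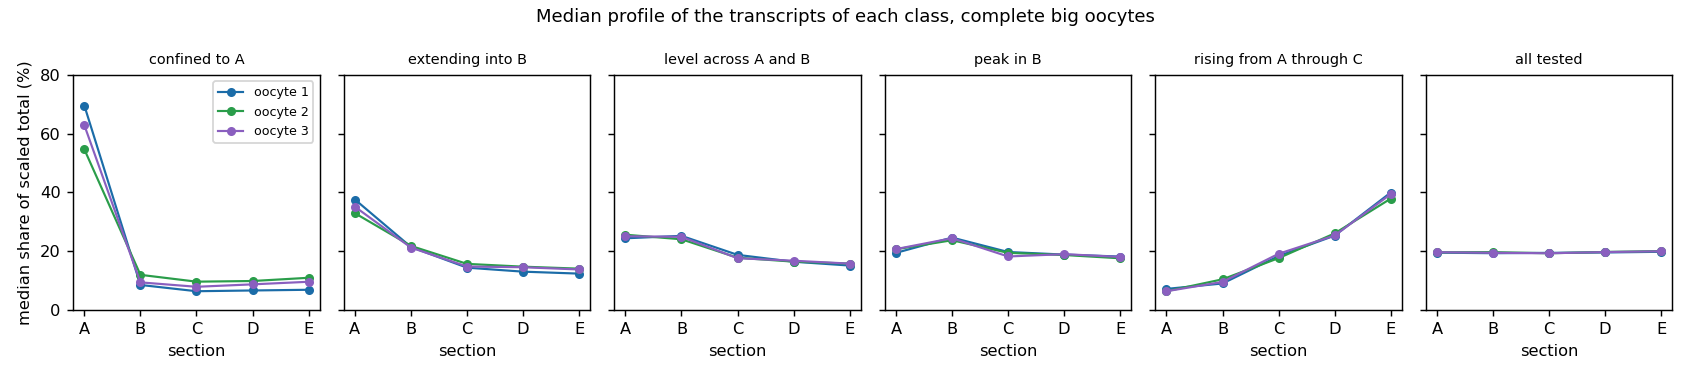
Median share of a transcript's scaled total (%) in each section for the members of 5 classes and for all tested transcripts, with a line for each of oocytes 1, 2 and 3. The class confined to A falls from 62.3% to 9.84% at the first boundary, and the peak in B rises only to 24.2%.

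Transcripts higher in B than in A were mostly not specific to B. Of the 1982, 477 had their highest fitted level in B, 373 in C, 366 in D and 766 in E. The class rising from A through C, with 513 members including dnd1, had a median A minus B of -0.54 and B minus C of -0.80, and E was higher than C for 80.3% of it, beside 21.2% of all tested. The largest called excess in B was that of TRINITY_GG_47647_c0_g1_i2_1, with 0, 0, 0 and 1.18 CPM in A and 16.3, 12.6, 14.8 and 16.3 CPM in B. The ratio of B to A, on 348 and 2 counts, was 192 (95% exact Poisson interval 52.7 to 1590, counting error only). In A of small oocytes 5, 6 and 8 the transcript was at 0, and their B held 0, 11.1 and 14.98 CPM. The A minus B of small oocytes was -8.13 ± 3.35 and did not pass the threshold (adjusted p 0.322). Outside A, the transcript was also at 0 in D of big oocyte 1, between 7.64 CPM in C and 15.9 CPM in E. It was at 0 in B of small oocyte 5 and C of small oocyte 8 as well. Its identifier is that of an isoform, and kallisto divides reads among similar isoforms, whose part in these values was not tested. TRINITY_GG_63772_c0_g1_i1_1 held 0.605, 0, 0.0930 and 0 CPM in A and 0.742, 6.70, 1.88 and 2.36 CPM in B, on the way to 73.5 to 82.8 CPM in E. Its A minus B of -3.42 ± 1.01 (adjusted p 0.0533) rested on single oocytes: it was -5.71 without oocyte 1 (adjusted p 2.93e-05), -2.09 without oocyte 2 (adjusted p 0.201), -2.98 without oocyte 3 (adjusted p 0.251) and -3.35 without oocyte 11 (adjusted p 0.0992).

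Transcripts of the same assembly gene usually agreed in direction. Of 95 assembly genes with at least 2 called transcripts, 68 had all of them higher in A, 17 all higher in B and 10 (10.5%) in both directions. An example of the last is TRINITY_GG_18394_c1_g1_i1_1, with an A minus B of 0.77 ± 0.26 (adjusted p 0.0553), and its sister TRINITY_GG_18394_c1_g1_i2_1, with -0.63 ± 0.23 (adjusted p 0.0848), chosen after their values were seen. Counts of sister isoforms share reads, so their split is uncertain.

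Leaving out oocyte 11 kept most of the calls toward A and fewer of those toward B. Without it, 4856 of 32916 tested transcripts were called (14.8%), of which 3324 were higher in A and 1532 higher in B. Of the calls with all oocytes, 3137 of those higher in A (87.0%) and 1317 of those higher in B (66.4%) remained, and none changed direction. Confined to A were then 301 transcripts, of which 267 were shared (96.4% of the 277 and 88.7% of the 301). Of the 10 lost, 7 remained higher in A, and their median A minus B moved from 2.088 to 1.962, across the 4-fold limit. Extending into B were 377, of which 358 were shared (83.4% of the 429 and 94.96% of the 377). Level across A and B were 493, of which 406 were shared. The peak in B lost the most: 26 transcripts, of which 18 were among the 38 (47.4%).

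Fewer transcripts were also called when another oocyte was left out. Without oocyte 3, 2557 transcripts were higher in A and 687 in B, and 2 transcripts had a peak in B. Without oocyte 1 the numbers were 2628 and 1420, and without oocyte 2 they were 3338 and 1484. Leaving out oocyte 1, 2 or 3 also removes libraries of C, D and E, and leaving out oocyte 11 removes only A and B. The fits therefore differ in power, and these counts do not compare the weight of the oocytes. The median log2 ratio of A to B of the class confined to A was 2.93, 2.08, 2.58 and 2.43 in oocytes 1, 2, 3 and 11. Oocyte 11 lay within the range of the others, but it was used in forming the class, so this is no test of it. For the class extending into B the median ratio was 0.79, 0.57, 0.72 and 0.63. Oocyte 2 gave the lowest ratio in both. Among 16149 transcripts of at least 200 scaled counts, the sign of the ratio in oocyte 11 was opposite to that of all the others for 13.05%, close to the 13.2% of oocyte 2, against 7.16% for oocyte 1 and 6.68% for oocyte 3.

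The A library of oocyte 11 had the lowest total and the fewest transcripts detected. It fell below the other A libraries by over 4-fold for 43 transcripts, against at most 9 in any other of the 8 libraries. It exceeded them by over 4-fold for 8, as many as B of oocyte 2 did against the other B libraries. The most abundant of the 8 in A of oocyte 11 was TRINITY_GG_62056_c2_g1_i1_1, named after its values were seen. It held 31570 CPM (2.94% of the library) against 1590 to 1869 CPM in the other A libraries. B of the same oocyte held 7195 CPM, against 1790 to 2280 CPM in the other B libraries, so both sections of that oocyte were high. Its A minus B was 0.37 ± 0.35 with an adjusted p of 0.605, and it entered no class.

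The named transcripts that moved most without oocyte 11 kept their calls. TRINITY_GG_29538_c1_g1_i1_1 held 167, 79.6, 109 and 53.2 CPM in A and 9.65, 9.27, 9.81 and 11.1 CPM in B, and its A minus B went from 3.39 ± 0.28 to 3.63 ± 0.24. For TRINITY_GG_76290_c0_g1_i1_1 it went from 1.29 ± 0.22 to 1.51 ± 0.20. TRINITY_DN54849_c0_g3_i1_1 held 8.78, 5.27, 4.84 and 14.8 CPM in A and 4.31, 2.70, 2.71 and 2.12 CPM in B, and its A minus B went from 1.32 ± 0.28 to 1.01 ± 0.27. For TRINITY_GG_47647_c0_g1_i2_1 it went from -7.21 to -9.57, because the only counts in A were those of oocyte 11.

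The small oocytes are other cells, not used to form the classes, in which the same boundary could be read. Among the 29225 transcripts tested in both stages, 4.11% were higher in A and 1.19% higher in B of small oocytes. Of the 262 transcripts confined to A in big oocytes that were tested there, 146 (55.7%) were higher in A and none higher in B. Their median A minus B was 0.91 in small and 2.52 in big oocytes. They were chosen for a difference of at least 2 in big oocytes, which widens this gap. How much of the gap comes from the choice was not tested, so it does not measure a stage difference. Of 427 that extended into B, 169 (39.6%) were higher in A and 9 higher in B, with a median of 0.27. Few transcripts higher in B of big oocytes were called there: of the 38 with a peak in B, none was higher in B of small oocytes and 1 was higher in A, and of 510 rising from A through C, 23 (4.51%) were higher in B.

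**Figure D5:**
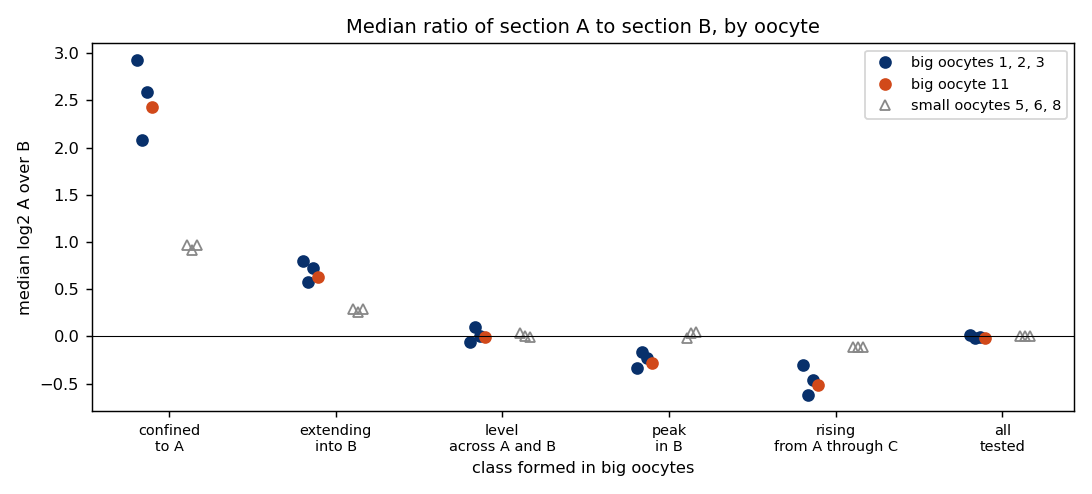
Median log2 ratio of A to B over the members of each class, with a point for each big oocyte (filled, oocyte 11 in orange) and each small oocyte (open triangles). The class confined to A lies at 2.08 to 2.93 in big oocytes, in which it was selected for high values. It lies at 0.91 to 0.97 in small oocytes, in which it was not selected. The choice widens the gap, by an amount that was not tested. Oocyte 11, which was used in forming the classes, lies among the other big oocytes.

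The difference between stages was tested as an interaction over all 35 libraries. The main fit had no term for the oocyte, so its p-values treat sections of the same oocyte as independent. A minus B was larger in big oocytes for 1336 of 33139 transcripts (4.03%) and smaller for 386 (1.16%), and with the oocyte as a block the numbers were 1612 and 696. Without oocyte 11, and with no block, they were 1225 and 271. For exd2, separate fits of each stage gave an A minus B of 4.35 at the big and 3.75 at the small stage. The interaction was 0.61 ± 0.35 for exd2 (adjusted p 0.455) and -0.07 ± 0.32 for slc44a3 (adjusted p 0.967). For dnd1 it was -1.19 ± 0.31 (adjusted p 0.0244), with 87.4 to 104 CPM in A and 94.5 to 105 CPM in B of small oocytes.

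Under the same limits of count and sign, the largest stage difference toward A belonged to TRINITY_GG_69000_c1_g1_i2_1, at 6.11 ± 0.85 (adjusted p 2.62e-05). Its small oocytes held 18.97, 20.9 and 14.6 CPM in A and 7.84, 13.04 and 18.8 CPM in B, which overlap. TRINITY_DN53798_c0_g1_i1_1 differed by 3.06 ± 0.23, with 55.0, 70.8 and 68.3 CPM in A and 41.3, 42.8 and 41.5 CPM in B of small oocytes. Toward B, TRINITY_GG_29797_c0_g1_i1_1 differed by -2.12 ± 0.41 (adjusted p 0.0017). It held 8.88, 21.9, 11.5 and 18.3 CPM in A and 27.6, 66.8, 54.5 and 55.7 CPM in B of big oocytes, without overlap, but 51.6 to 71.8 and 43.2 to 60.9 CPM in small oocytes. TRINITY_GG_71398_c1_g1_i1_1 differed by -2.71 ± 0.72 (adjusted p 0.0228), and the estimate was -2.31 without oocyte 3 (adjusted p 0.177), -2.29 without oocyte 6 (adjusted p 0.220) and -2.75 without oocyte 8 (adjusted p 0.108). Its A minus B in big oocytes, -2.99 ± 0.72, was -2.58 without oocyte 3 (adjusted p 0.194).

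The width of the step was also measured per oocyte, as the SD of the log2 ratio between neighbouring sections over 13250 transcripts after thinning each library to 1653598 counts. From A to B, big oocytes 1, 2, 3 and 11 gave 0.602, 0.510, 0.551 and 0.573. Small oocytes 5, 6 and 8 gave 0.417, 0.434 and 0.447. The groups did not overlap, with means of 0.559 ± 0.0389 (SD, n = 4) and 0.433 ± 0.0150 (SD, n = 3). Counting error is part of this measure, by an amount that was not tested. Without thinning the means were 0.506 ± 0.0497 in big and 0.374 ± 0.0259 in small oocytes. A section was 384 to 420 µm thick in big and 264 to 300 µm in these small oocytes, so the steps span unlike distances. The two-sided exact permutation test over oocytes gave p = 0.0286, the smallest value that its 35 splits allow. The big oocytes came from 1 female and the small ones from another. This p-value therefore cannot separate stage from female, section thickness or RNA input. Within big oocytes the mean was 0.559 from A to B (n = 4), and 0.519 from B to C, 0.444 from C to D and 0.475 from D to E (n = 3). The boundary of A and B was the widest step in oocytes 1 and 2, but in oocyte 3 the step from B to C (0.565) was wider than that from A to B (0.551). In small oocytes 5, 6 and 8 the step from A to B was also the widest. The next widest there, from D to E, gave 0.398, 0.404 and 0.436. Small oocyte 7, which has no library of A or B, gave 0.456 from D to E.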

How the data were processed

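The authors trimmed reads with Trimmomatic, removed ribosomal reads, and quantified transcripts of a combined assembly with kallisto 0.43.1. The deposited table, not normalized, holds estimated counts stored as whole numbers, which entered the fits as deposited. The other deposited tables were not used. edgeR 4.0.16 (R 4.3.3) fitted oocyte and section to all 17 libraries of big oocytes with median-of-ratios scaling and a robust quasi-likelihood test, after the study's own model. Adjusted p-values are Benjamini-Hochberg values over all transcripts tested, and 0.1 was the threshold. DESeq2 1.42.0 was an alternative. Ratios per oocyte used a pseudocount of 0.5 scaled counts. Equal oocyte numbers mark a single cell and pair the libraries. Deviations of A and B from their section means correlated at 0.124 to 0.284 within an oocyte. The mean between oocytes, -0.0729, is set by the centring on section means and adds no evidence. P-values of A minus B in big oocytes rest on the scatter left after oocyte and section were fitted. That scatter is pooled over the 17 libraries of oocytes of 1 female. P-values of the stage difference rest on all 35 libraries, with no term for the oocyte in the main fit. Named transcripts were the markers and, among called transcripts (for the level class, called against C) with a scaled total of at least 200 and the same sign of A minus B in all 4 big oocytes, the 2 most extreme of each direction, class and stage difference, and the 2 in each direction that changed most without oocyte 11. The rule, the classes and the comparison were chosen with earlier results of these data known. Markers of follicle cells could not be looked up without gene names. In data simulated for A minus B in big oocytes over 31743 transcripts, the test recovered 43.2% of 95 changes of 2-fold and 93.9% of 99 of 4-fold, with 9 false calls. The simulation gave every transcript the same scatter beyond counting error and changed only a small share of them. Its rates therefore check the procedure and do not give the recovery or false calls in the real data.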

Additional observations from a re-analysis of the deposited data

Results flagged for a closer look

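Among 62 sets of 4 big oocytes that were examined, 9 had a sample far from the others by Dixon's criterion at 95%. Chance alone gives about 1 in 20 for independent sets. These sets overlap, and some hold transcripts chosen by their values, so that rate is no test of the 9. The 10 most abundant transcripts took 10.2% of the counts of section A of oocyte 11. Oocyte 11 stood apart by the log2 ratio of A to B of TRINITY_GG_47647_c0_g1_i2_1 (-3.68, with 1.18 CPM in A, where the others had 0) and TRINITY_DN54849_c0_g3_i1_1 (2.74). Both were named by the rule that picks the largest change without oocyte 11, so its place in them follows from that choice. In oocyte 1, section A stood apart for TRINITY_GG_63772_c0_g1_i1_1 (0.605 CPM) and TRINITY_DN53798_c0_g1_i1_1 (216 CPM, and a log2 ratio of A to B of 4.11). In oocyte 3, they were section A of TRINITY_GG_78355_c0_g1_i1_1 (11.4 CPM) and the log2 ratio of TRINITY_GG_29797_c0_g1_i1_1 (-2.23).

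For 8 named transcripts the A minus B of big oocytes differed from that of small oocytes by the interaction test. It was larger in big oocytes for TRINITY_GG_69000_c1_g1_i2_1 (by 6.11), TRINITY_DN53798_c0_g1_i1_1 (3.06), TRINITY_GG_29538_c1_g1_i1_1 (1.21) and TRINITY_GG_76290_c0_g1_i1_1 (1.09). It was lower for TRINITY_GG_71398_c1_g1_i1_1 (-2.71), TRINITY_GG_29797_c0_g1_i1_1 (-2.12), dnd1 (-1.19) and TRINITY_GG_71205_c2_g1_i1_1 (-0.94). A rule on this same test named TRINITY_GG_69000_c1_g1_i2_1, TRINITY_DN53798_c0_g1_i1_1, TRINITY_GG_71398_c1_g1_i1_1 and TRINITY_GG_29797_c0_g1_i1_1, so their passing it was fixed by the choice. Stage, female, section thickness and RNA input cannot be told apart.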

How the results depend on the processing

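Counts of transcripts higher in A of big oocytes stayed within 1.5 times of 3605 under every alternative run (2520 to 3541), and all but 8 of 299 values of the named transcripts kept their direction and call. Counts higher in B moved from 1982 to 5309 with library totals, 1251 with no replicate block and 979 after thinning to 1816470 counts. Thinning also gave 227 transcripts extending into B and 273 level across A and B. With a minimum of 200, 116 were confined to A. The peak in B held 303 transcripts with library totals, 20 with DESeq2, 23 with no filter, 64 with a minimum of 200, 9 with no replicate block and 15 after thinning. The stage difference toward B counted 696 with the replicate block and 202 with TMM. In small oocytes, 881 were higher in B with library totals and 224 with no replicate block, against 354. Leaving out the block changed no call of a named transcript.

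Leaving out 1 oocyte at a time gave 2557 to 3338 higher in A and 687 to 1532 higher in B of big oocytes, 215 to 334 confined to A, 177 to 377 extending into B, 126 to 493 level across A and B, and 2 to 29 with a peak in B. In small oocytes it gave 786 to 1167 and 134 to 340. The stage difference counted 852 to 1354 toward A and 126 to 396 toward B. The fit of only A and B without oocyte 11, chosen after seeing the data, gave 3336 and 1617. The causes were not tested, except that thinning and a minimum of 200 leave fewer counts or transcripts to test.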
